A study of Mus musculus with 6 samples.

Results

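The RGS genes encode the regulators of G protein signalling, and 10 of them (Rgs1, Rgs2, Rgs3, Rgs4, Rgs5, Rgs10, Rgs12, Rgs14, Rgs16 and Rgs19) were taken by gene symbol from the 21603 genes measured. The other 11 RGS genes were read beside them. RNA was sequenced from the lungs of mice at postnatal day (P) 8, as 3 control and 3 Yap1,Wwtr1 iPCKO samples. Each sample is also called a lung below, although the labels do not say how mice map to samples. All mice, of the strain C57BL/6 in the labels, carried the tamoxifen-inducible Pdgfrb(BAC)-CreERT2 transgene and an Rpl22HA allele, which puts an HA tag on the ribosomal protein RPL22 after Cre recombination, and tamoxifen was given in the first days after birth. Anti-HA immunoprecipitation then recovered RNA bound to ribosomes of recombined cells, here pulmonary pericytes (PCs). Yap1,Wwtr1 iPCKO mice were homozygous for the loxP-flanked alleles of Yap1 and Wwtr1 (Yap1-/-;Wwtr1-/- in the labels), whereas controls were heterozygous for both (Yap1+/-;Wwtr1+/-), so that a wild-type control without Cre was not part of the comparison. YAP1 and TAZ, the product of Wwtr1, are transcriptional co-regulators of the Hippo pathway.

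RGS proteins bind GTP-loaded Gα subunits and accelerate GTP hydrolysis, which ends signalling from G protein-coupled receptors. The R4 subfamily (Rgs1, Rgs2, Rgs3, Rgs4, Rgs5 and Rgs16 among the members) consists mostly of small proteins with little beyond the RGS domain, whereas RGS12 and RGS14 of the R12 subfamily also carry domains that bind Ras proteins and inactive Gα, and RGS19 belongs to the RZ subfamily. Rgs5 is widely used as a marker of pericytes, RGS2 acts mainly on Gαq downstream of vasoconstrictor receptors, and Rgs1 is a gene of lymphocytes.

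Rgs5, Rgs4, Rgs2 and Rgs16 share a chromosome. On GRCm38, 5 of the 10 members and 11 of all 21 RGS genes lie on chromosome 1. Rgs5 (chr1:169655501-169695813, plus strand) and Rgs4 (chr1:169741477-169747642, minus strand) are neighbours that point towards each other, with 45.7 kb between them. Rgs2 (chr1:143999338-144004161, minus strand) lies at one end of a run of RGS genes on the same strand that continues over 776 kb with Rgs13, Rgs1, Rgs21 and Rgs18 (chr1:144752683-144775435). Rgs16 (chr1:153740349-153745468, plus strand) lies 40.0 kb from Rgs8. The 250 bases upstream of the RefSeq start site are shown for the 4 R4 members whose levels are compared in most detail, written 5′ to 3′ along the strand of each gene, with CCAAT boxes (CCAAT or ATTGG) and the short form of the cyclic AMP response element (TGACG or CGTCA) in capitals. The windows are chr1:169655251-169655500 (Rgs5, plus), chr1:169747643-169747892 (Rgs4, minus), chr1:144004150-144004399 (Rgs2, minus) and chr1:153740103-153740352 (Rgs16, plus) of GRCm38.p6.
Rgs5: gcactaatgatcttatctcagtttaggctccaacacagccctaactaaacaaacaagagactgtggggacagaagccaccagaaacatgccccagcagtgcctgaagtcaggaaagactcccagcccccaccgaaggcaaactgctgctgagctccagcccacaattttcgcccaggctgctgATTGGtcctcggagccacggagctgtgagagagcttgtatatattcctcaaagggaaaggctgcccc
Rgs4: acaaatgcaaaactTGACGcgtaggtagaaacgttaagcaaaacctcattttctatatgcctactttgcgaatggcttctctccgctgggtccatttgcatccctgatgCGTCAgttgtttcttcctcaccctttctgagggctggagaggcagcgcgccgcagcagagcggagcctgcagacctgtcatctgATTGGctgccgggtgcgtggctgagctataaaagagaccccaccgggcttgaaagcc
Rgs2: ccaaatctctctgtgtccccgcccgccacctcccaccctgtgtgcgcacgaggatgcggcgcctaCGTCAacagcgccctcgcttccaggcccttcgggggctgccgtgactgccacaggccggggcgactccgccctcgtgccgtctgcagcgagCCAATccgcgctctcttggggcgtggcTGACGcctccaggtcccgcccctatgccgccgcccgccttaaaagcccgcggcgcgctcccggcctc
Rgs16: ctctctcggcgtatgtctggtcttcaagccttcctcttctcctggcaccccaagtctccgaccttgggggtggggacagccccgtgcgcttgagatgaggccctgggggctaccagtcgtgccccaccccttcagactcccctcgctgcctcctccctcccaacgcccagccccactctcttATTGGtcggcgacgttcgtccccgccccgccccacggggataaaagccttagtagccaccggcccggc

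RefSeq windows were found for 8 of the 10 members, 12 windows in all, and not for Rgs1 and Rgs14. A CCAAT box, searched for on both strands after these sequences had been seen, was present in 4 of the 12 windows (Rgs2, Rgs4, Rgs5 and Rgs16), against 33.8% of 32851 windows of all genes. It starts 67 bases upstream of the start site in Rgs5, 57 in Rgs4, 94 in Rgs2 and 68 in Rgs16. The letters TGACG, again on both strands, was present in 3 of the 12 windows (Rgs2, Rgs4 and Rgs12), against 17.8% of all windows, so the neighbours Rgs5 and Rgs4 differ in it. The core letters of the TEAD motif, GGAATG or CATTCC, were in 0 of the 12 windows and in 12.6% of all windows. The CArG box was likewise in 0 of the 12 and in 1.47% of all.

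Low RPKM values (reads per kilobase of transcript and per 1 M mapped reads) fell on steps that correspond to between 14.25 and 39.64 M reads per sample, with overlapping ranges in both groups. Yap1 fell from 12.35 ± 0.86 RPKM (SD, n = 3) in controls to 5.61 ± 0.31 in Yap1,Wwtr1 iPCKO samples, whereas Wwtr1 had 60.4 ± 9.5 and 62.0 ± 1.6 RPKM. The Yap1 values follow the labelled genotype and the Wwtr1 values do not show a loss. For both genes the values cover the whole gene, and reads of the loxP-flanked parts were not separated here. In lysates of whole lungs at a later age, and not in these samples, the paper found both proteins strongly reduced by Western blot. All 10 pericyte markers were measured above 0 in every sample. This does not test the tissue label, since all markers of the other cell types read here were above 0 as well. Pdgfrb had between 1193 and 1666 RPKM across the 6 samples. The epithelial marker Sftpc had between 338.1 and 467.5 RPKM, and the smooth muscle marker Acta2 between 594.4 and 759.7. The summed RPKM of 10 neutrophil markers ranged from 83.4 to 121.9 in controls and from 440.0 to 4792 in mutants, with iPCKO 3 highest, and the sum of 10 leukocyte markers from 85.8 to 105.9 and from 167.9 to 280.0. The summed levels of 9 macrophage and 8 epithelial markers were also higher in all mutant samples, whereas those of 9 endothelial and 6 erythrocyte markers overlapped.

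Of the 10 members, Rgs5 was lower in Yap1,Wwtr1 iPCKO PCs than in control PCs, and no other member passed the thresholds (adjusted p below 0.01 and absolute log2 fold change above 0.5). Rgs5, the most abundant RGS transcript, dropped to 43.9% of its control level, while its neighbour Rgs4 stayed at 98.3%. Rgs2 was at 171% of its control level but missed the adjusted p threshold. In the fit across all genes, 9 of the 10 members were tested, since Rgs1 was below 1 RPKM in every sample. The 1 call stands against 6.79% of the 12034 genes tested that passed both thresholds, 4.11% higher and 2.68% lower. The median log2 fold change of the 9 tested members was 0.10, against 0 for all tested genes. In a fit with replicate numbers as a block, 1 of the 9 was called as well, Rgs2 in place of Rgs5, against 7.66% of all genes.

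**Figure D1:**
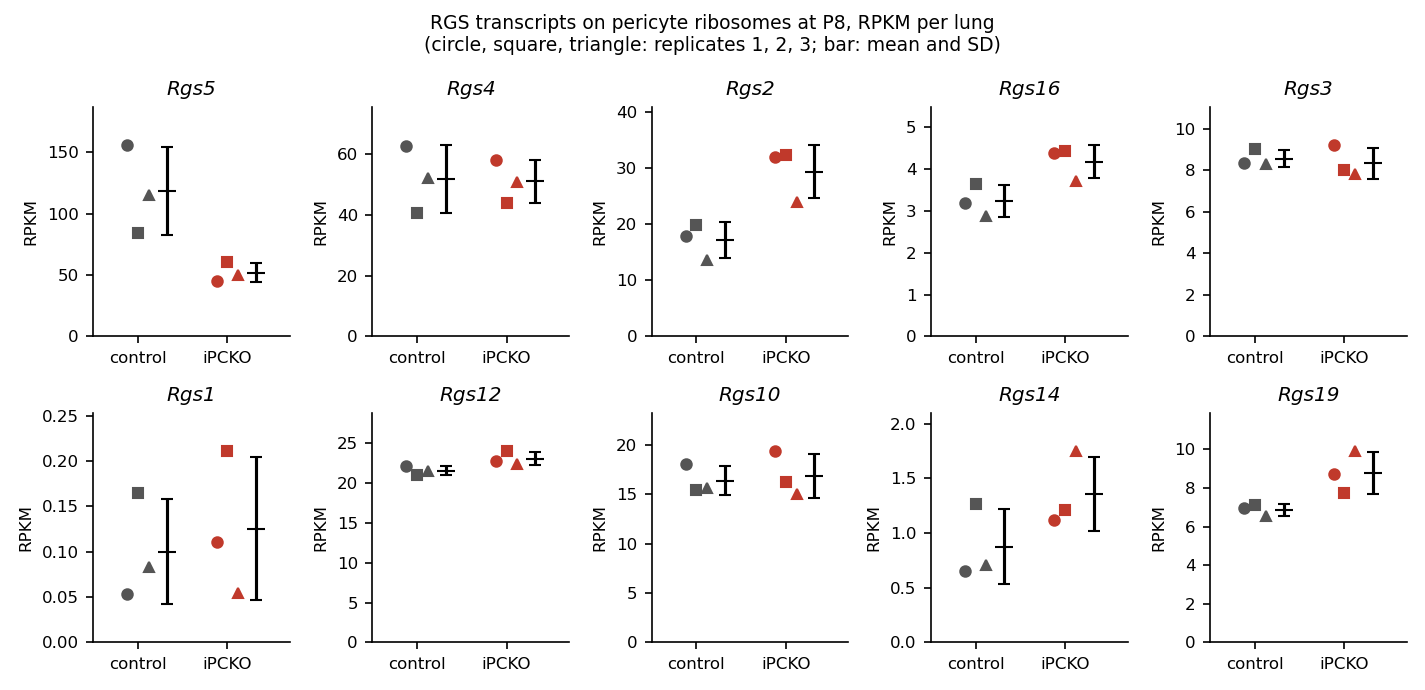
RPKM of the 10 RGS members in each of the 3 control (grey) and 3 Yap1,Wwtr1 iPCKO (red) lungs on linear axes from 0; the circle, the square and the triangle are replicates 1, 2 and 3, and the black bar is the group mean with its SD. Rgs5 is at 84.0 RPKM or more in controls and at 60.7 or less in iPCKO samples, Rgs2 has the opposite order, and the groups of Rgs4 overlap.

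Among the R4 members, Rgs5 had 155.9, 84.0 and 115 RPKM in control 1, 2 and 3, and 45.4, 60.7 and 49.8 RPKM in iPCKO 1, 2 and 3. Every mutant lung was below every control lung, and the spread among controls (SD 36.1 RPKM) was wider than among mutants (7.86 RPKM). The log2 fold change of RPKM + 0.1 was -1.15 (SE 0.21, 95% interval -1.63 to -0.67, adjusted p = 0.0078, limma). Among all genes, Rgs5 held rank 255 by mean RPKM in controls and rank 878 in Yap1,Wwtr1 iPCKO samples. The fall kept its direction with each sample left out, but passed the thresholds only without control 2. Without control 1 the limma adjusted p was 0.016, without control 3 it was 0.03, and without iPCKO 1, 2 and 3 it was 0.018, 0.014 and 0.03.

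The level of Rgs5 moved beside markers of the same cells that went both ways. Notch3, the receptor of mural cells, had 342.8, 278.6 and 318.6 RPKM in controls and 171.6, 155.3 and 163.0 in mutants, and was called lower. Cspg4, which encodes the NG2 proteoglycan, rose from between 77.1 and 87.5 RPKM to between 157.6 and 181.7. Of the 10 pericyte markers, 3 were called higher and 2 lower, against 4.11% and 2.68% of all tested genes. Their summed RPKM, of which Pdgfrb was the largest part, ranged from 3848 to 4826 in controls and from 3307 to 4099 in mutants. In RNA from a whole lung pulldown, fewer cells of a type and less RNA per cell cannot be told apart. By flow cytometry at P12, and not in these samples, the paper found no significant change in the abundance of PDGFRβ+ cells.

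Rgs4, whose product acts on Gαi and Gαq, was the second most abundant member. It had 62.7, 40.6 and 52.2 RPKM in control 1, 2 and 3, against 58.0, 44.0 and 50.9 RPKM in iPCKO 1, 2 and 3. The groups overlapped throughout, and the log2 fold change was -0.01 (95% interval -0.39 to 0.37, adjusted p = 0.98, limma). The interval leaves room for changes up to those bounds, but not for one of the size measured for Rgs5. In each sample the ratio of Rgs5 to Rgs4 RPKM, a quantity chosen after the values had been seen, was 2.49, 2.07 and 2.21 in controls and 0.78, 1.38 and 0.98 in mutants. The ratio did not overlap between groups (exact permutation test, two-sided, p = 0.1, the smallest p that 3 against 3 samples allow).

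Rgs2 had 17.98, 19.89 and 13.72 RPKM in control 1, 2 and 3, and 31.95, 32.34 and 24.0 RPKM in iPCKO 1, 2 and 3. All mutant lungs were above all control lungs. The log2 fold change was 0.78 (SE 0.16, 95% interval 0.41 to 1.15), and the limma adjusted p of 0.014 was above the threshold. With weights for sample quality Rgs2 passed (limma adjusted p = 0.00074), in a fit that called 13.2% of all genes. At an adjusted p below 0.05, 2 of the 9 tested members, Rgs5 and Rgs2, were called, against 10.9% of all genes.

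The remaining R4 members were lower in level than Rgs5, Rgs4 and Rgs2, and none of them was called. Rgs16, a gene whose transcription is induced by G protein and inflammatory signals in many cells, had 3.19, 3.65 and 2.88 RPKM in controls and 4.38, 4.42 and 3.72 in mutants. Its groups did not overlap, with a log2 fold change of 0.36 (95% interval 0.07 to 0.65, adjusted p = 0.097, limma). The steps of its single annotated transcript correspond to 147, 149 and 234 reads in controls and 217, 410 and 124 reads in mutants. Rgs3, which has 17 annotated transcripts whose use was not measured, had between 8.29 and 9.04 RPKM in controls and between 7.83 and 9.21 in mutants, at a log2 fold change of -0.04 (95% interval -0.26 to 0.18). Rgs1 had 0.053, 0.165 and 0.083 RPKM in controls and 0.111, 0.211 and 0.055 in mutants, which gives no order between groups. The sum of 10 lymphocyte markers was 7.65 to 8.37 RPKM in controls and 4.71 to 7.80 in mutants.

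In the R12 subfamily, Rgs12, a large multidomain RGS protein gene, had the smallest SE of the tested members (0.08). It had 22.1, 20.95 and 21.6 RPKM in controls and 22.7, 24.0 and 22.4 in mutants, groups that did not overlap although they differed by a log2 fold change of only 0.10 (95% interval -0.08 to 0.28, adjusted p = 0.45, limma). Rgs10, which encodes a small RGS protein acting on Gαi and known from microglia and platelets, ranged from 15.5 to 18.1 RPKM in controls and from 15.1 to 19.4 in mutants (log2 fold change 0.04, 95% interval -0.22 to 0.30). Rgs14 was near the lower limit of the test. It had 0.65, 1.27 and 0.71 RPKM in controls and 1.12, 1.21 and 1.75 in mutants, with an overlap through control 2, and its interval of -0.02 to 1.24 (adjusted p = 0.18, limma) is the widest of the 9 tested members.

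Rgs19, the RZ member, had 6.99, 7.10 and 6.53 RPKM in controls and 8.73, 7.73 and 9.91 in mutants. Its groups did not overlap, and its log2 fold change was 0.34 (95% interval 0.10 to 0.59, adjusted p = 0.068, limma). Altogether 5 of the 9 tested members had groups that did not overlap, Rgs5 in the lower direction and Rgs2, Rgs12, Rgs16 and Rgs19 in the higher, whereas 35.5% of all tested genes had such groups. The 10 leukocyte and 10 neutrophil markers also rose in sum in the same 3 lungs. Among these lungs both sums were highest in iPCKO 3, where Rgs2 and Rgs16 were lowest and Rgs19 was highest. The part of the markers in the levels of Rgs2, Rgs16 and Rgs19 was not tested.

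**Figure D2:**
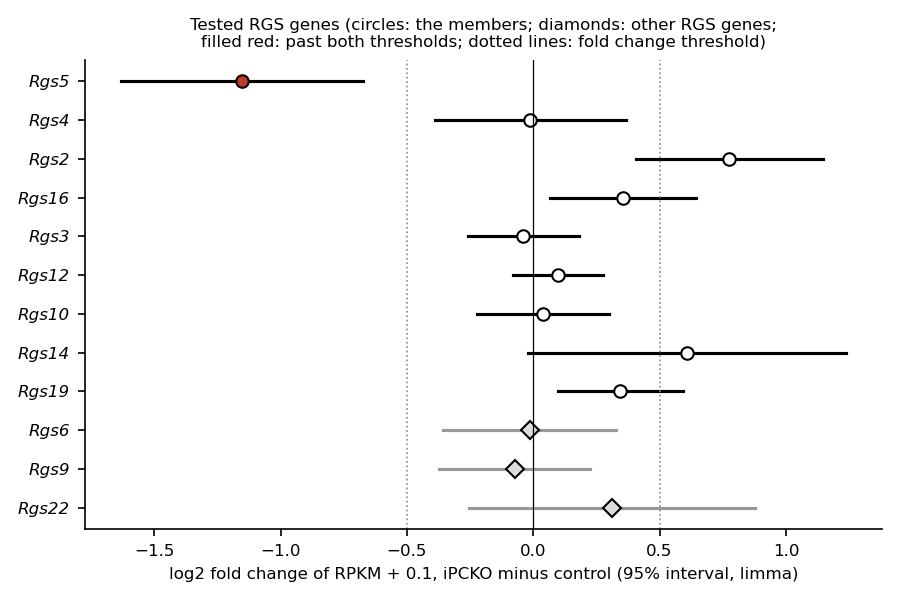
Log2 fold change of RPKM + 0.1 (Yap1,Wwtr1 iPCKO minus control) with its 95% interval for the 9 tested members (circles) and the 3 other tested RGS genes (diamonds); dotted lines mark the fold change threshold and a red fill marks a gene past both thresholds. Rgs5 is the only filled symbol, at -1.15, and the intervals of Rgs2, Rgs16 and Rgs19 lie above 0, while those of the other 5 members and of the 3 other RGS genes include 0.

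Rgs5 and Rgs4 led the order of the members in both groups, and below them Rgs2 and Rgs12 changed places, as did Rgs3 and Rgs19. By mean RPKM, controls had Rgs5 (118 ± 36.1), Rgs4 (51.8 ± 11.1), Rgs12 (21.5 ± 0.57), Rgs2 (17.2 ± 3.16), Rgs10 (16.4 ± 1.44), Rgs3 (8.56 ± 0.41), Rgs19 (6.87 ± 0.30), Rgs16 (3.24 ± 0.39), Rgs14 (0.88 ± 0.34) and Rgs1 (0.10 ± 0.06; all SD, n = 3). Only the neighbours Rgs2 and Rgs10 overlapped in range. In Yap1,Wwtr1 iPCKO samples Rgs5 (52.0 ± 7.86) and Rgs4 (51.0 ± 7.03) overlapped, Rgs2 (29.4 ± 4.70) came next, above Rgs12 (23.0 ± 0.83), and Rgs19 (8.79 ± 1.09) overlapped with Rgs3 (8.34 ± 0.75).

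Together the 10 members had a summed level of 296, 202 and 237 RPKM in controls and 201.1, 198.8 and 185.3 RPKM in mutants. The difference of means was -49.9 RPKM (exact permutation test, two-sided, p = 0.1, the smallest possible). Without control 1 it was -24.5 RPKM, and without any 1 of the mutant samples the exact permutation p was 0.2. Rgs5 made up 52.7%, 41.6% and 48.7% of this sum in controls and 22.6%, 30.5% and 26.9% in mutants (exact permutation p = 0.1, again the smallest possible). The share of Rgs2 rose in mean from 7.24% to 15.0%. Without Rgs5 the other 9 members summed to 140.1, 118.1 and 121.7 RPKM in controls and 155.7, 138.1 and 135.6 in mutants, and these ranges overlapped (exact permutation p = 0.3).

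**Figure D3:**
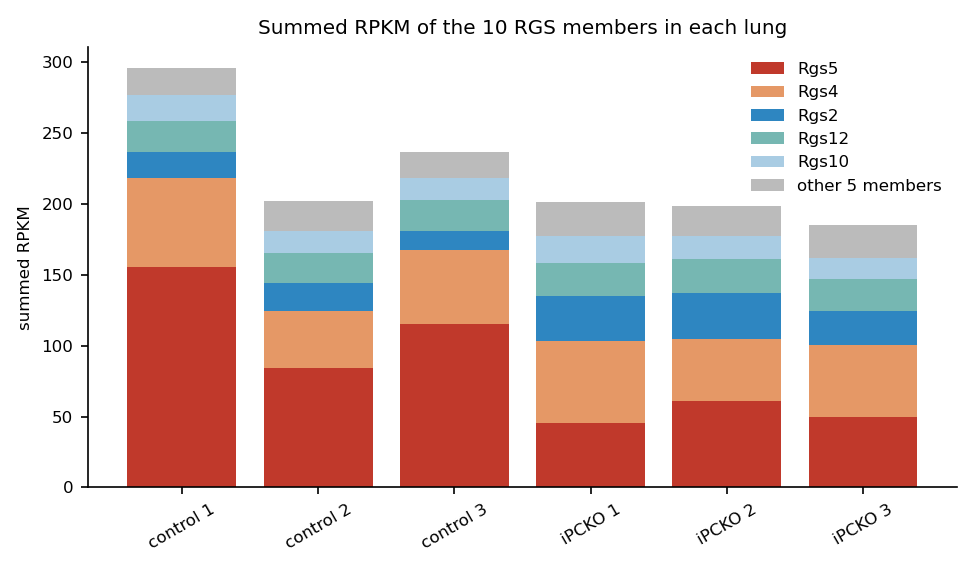
Summed RPKM of the 10 RGS members in each lung, stacked by gene on a linear axis from 0; the grey part holds Rgs1, Rgs3, Rgs14, Rgs16 and Rgs19. The Rgs5 part is 41.6% or more of each control bar and 30.5% or less of each iPCKO bar, while the other parts together come to between 118.1 and 155.7 RPKM in all 6 bars.

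The genes whose pattern over the 6 samples was most like that of Rgs5, by Pearson's r of log2(RPKM + 0.1) and outside the members, were Ranbp6 (r = 0.997), Lynx1 (0.995) and Mrpl3 (0.988). Their changes were of different size. Lynx1 had 3.34, 2.57 and 2.82 RPKM in controls and 2.00, 2.20 and 1.99 in mutants, whereas Ranbp6 ranged only from 6.89 to 7.31 and from 6.41 to 6.57. These values describe the order of the samples in a table of all genes, and 6 points leave many genes with a high r.

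Of the 11 other RGS genes, 3 were tested and none passed the thresholds, nor did any at an unadjusted p below 0.05 (limma, 0 of 3). Rgs6, of the R7 subfamily, had between 13.2 and 15.5 RPKM in controls and between 11.1 and 17.0 in mutants. Rgs9 had between 1.93 and 2.14 and between 1.80 and 2.08, and Rgs22 between 1.10 and 1.63 and between 1.31 and 2.46. Rgs7, Rgs8, Rgs11, Rgs13, Rgs17 and Rgs20 were below 1 RPKM in every sample, and Rgs21 was listed at 0 in all. Among the partners of R7 proteins, the Gβ gene Gnb5 ranged from 13.7 to 15.6 RPKM and from 12.9 to 16.1, and the receptor gene Gpr179 was below 1 RPKM throughout. The R7 partner Rgs7bp, which anchors R7 RGS proteins at the membrane, had 4.82, 4.51 and 4.81 RPKM in controls and 3.19, 3.57 and 3.35 in mutants. It was lower in 3 of 3 mutant lungs by -0.47 on the log2 scale and missed both thresholds (limma adjusted p = 0.014).

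Rgs18, a gene of platelets and megakaryocytes at the far end of the run from Rgs2, was too low for the test but differed in range. It had 0.42, 0.42 and 0.41 RPKM in controls (17, 15 and 29 reads from the steps) and 0.84, 1.57 and 2.31 RPKM in mutants (36, 126 and 67 reads). Every mutant lung was above every control lung. When no filter on low values was applied, its log2 fold change was 1.58 (95% interval 0.83 to 2.33), with an adjusted p of 0.021 that missed the threshold (limma). The summed RPKM of 8 platelet markers was 11.0, 12.2 and 10.2 in controls and 32.9, 59.1 and 89.2 in mutants, in the same order of the 3 mutant lungs as Rgs18. Of the 7 tested markers 6 were called higher, against 4.11% of all tested genes, and Pf4, which encodes platelet factor 4, was among them. Some of these markers were below 1 RPKM in every control and entered the test only through the mutant samples. The part of the platelet markers in the level of Rgs18 was not tested.

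**Figure D4:**
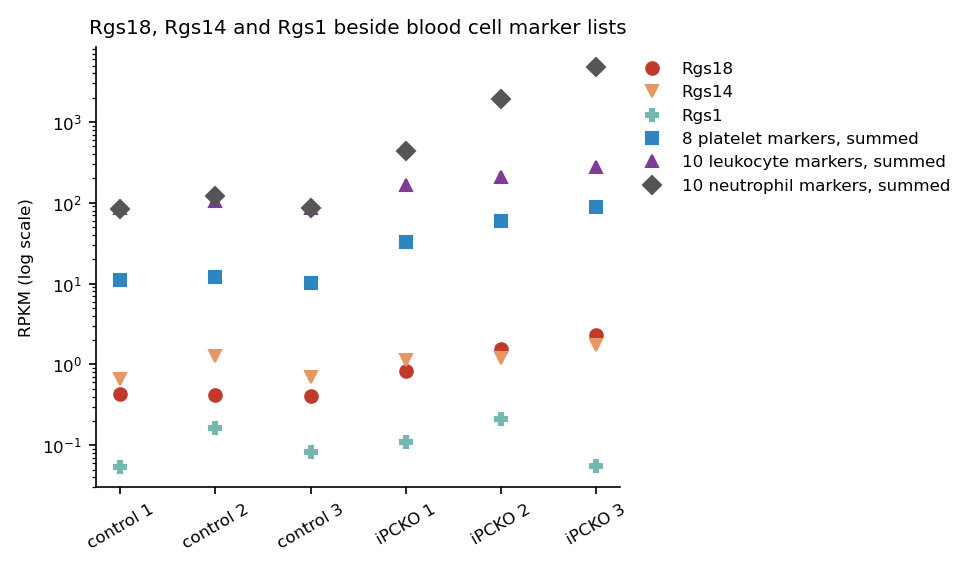
RPKM on a log axis of Rgs18, Rgs14 and Rgs1 and the summed RPKM of 8 platelet, 10 leukocyte and 10 neutrophil markers in each of the 6 lungs. Rgs18 is near 0.42 in all controls and 0.84, 1.57 and 2.31 in iPCKO 1, 2 and 3, the order in which the 3 marker sums and Rgs14 also lie in these samples, whereas Rgs1 lies in another order.

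The G protein pathway upstream and downstream of the RGS proteins was read from lists of 94 genes, of which 73 were tested and 8 passed both thresholds, 2 higher and 6 lower. The background is the same 6.79%, but the lists were chosen with earlier results of these data known. The counts are therefore not independent of the data. Among the 15 tested receptors 5 were called. Adora1, the Gi-coupled adenosine receptor, had 3.96, 3.27 and 3.50 RPKM in controls and 0.44, 0.56 and 0.68 in mutants (log2 fold change -2.49, adjusted p = 8.8e-05, limma). Tbxa2r, the thromboxane receptor that couples to Gαq and Gα12/13, dropped to 26.6% of its control level, from 12.4 ± 0.43 to 3.29 ± 0.88 RPKM (SD, n = 3), a log2 fold change of -1.91 (limma adjusted p = 0.00029). P2ry14, a Gi-coupled receptor for UDP-sugars, had 222.9, 212.8 and 208.3 RPKM in controls and 135.1, 103.5 and 93.0 in mutants (log2 fold change -0.97, adjusted p = 0.0025, limma). All 3 were lower in every mutant lung. The higher calls were S1pr3 and Adra2b. S1pr3, a receptor for the lipid mediator S1P, had 122.8, 99.6 and 120.6 RPKM in controls and 242.0, 187.0 and 174.5 in mutants (log2 fold change 0.81, adjusted p = 0.0077, limma). Adra2b, a Gi-coupled adrenergic receptor, had 0.25, 0.17 and 0.23 RPKM in controls and 3.47, 5.46 and 4.19 in mutants (adjusted p = 2.8e-05, limma). Adra2b was 20.1 times its control mean, from a level that was low in all 3 controls. It reached the 1 RPKM needed for the test only in the mutants, and Adora1 only in the controls. The abundant thrombin receptor gene F2r had between 296.6 and 386.3 RPKM in controls and between 279.7 and 343.0 in mutants, and was not called.

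Of 11 tested Gα genes only Gnai1 was called. Gnai1, which encodes a target of most R4 RGS proteins, had 36.5, 30.4 and 32.8 RPKM in controls and 19.1, 14.7 and 14.2 in mutants (log2 fold change -1.06, SE 0.13, adjusted p = 0.0011, limma). The most abundant Gα gene, Gnai2, ranged from 165.3 to 222.1 RPKM and from 183.4 to 203.6, and Gnai3 from 52.9 to 59.6 and from 54.4 to 60.3. Gnas, which encodes the stimulatory Gα subunit, had 132.8 ± 15.1 RPKM in controls and 149.2 ± 8.76 in mutants (SD, n = 3), and Gna12 ranged from 50.0 to 71.9 and from 57.5 to 61.9 RPKM. These groups overlapped. Among 9 tested Gβ and Gγ genes, Gng2 alone was called, at 31.9, 20.9 and 24.6 against 12.6, 11.8 and 11.1 RPKM (log2 fold change -1.10, adjusted p = 0.0017, limma). The most abundant of these genes, Gng11, had 332.5, 212.2 and 271.3 RPKM in controls and 201.3, 175.4 and 157.7 in mutants. Its groups did not overlap, and its limma adjusted p of 0.052 missed the threshold. Of the abundant Gβ genes, Gnb1 ranged from 93.0 to 118.0 RPKM in controls and from 85.4 to 97.0 in mutants, and Gnb2 from 92.6 to 110.7 and from 99.1 to 115.5. Of 15 tested effectors, Adcy8, a calcium-stimulated adenylyl cyclase, was called. It had 104.1, 94.4 and 116.9 RPKM in controls and 39.6, 16.0 and 20.5 in mutants (log2 fold change -2.15, adjusted p = 0.0016, limma). The other abundant cyclases were not called. Adcy2 had 36.3 to 40.6 RPKM in controls and 30.5 to 31.1 in mutants, and Adcy6 had 31.8 to 38.0 and 38.8 to 51.7. The groups did not overlap for either gene. Adcy3 passed the adjusted p threshold (0.0043, limma) but missed that of the fold change, at -0.48 on the log2 scale.
The pathway calls were not equally firm. S1pr3 lost its call in 5 of the 6 fits with a sample left out, P2ry14 in 4 (each control and iPCKO 2) and Adcy8 in 1 (control 1, adjusted p = 0.01, limma), and without control 1 the count of calls was 5. Gnai1, Gng2, Adora1, Tbxa2r and Adra2b kept theirs in all 6, but Adora1 and Adra2b entered the test only through the group in which they were high. With at least 1 RPKM required in all 6 samples they were not tested, and 6 pathway genes were called.

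**Figure D5:**
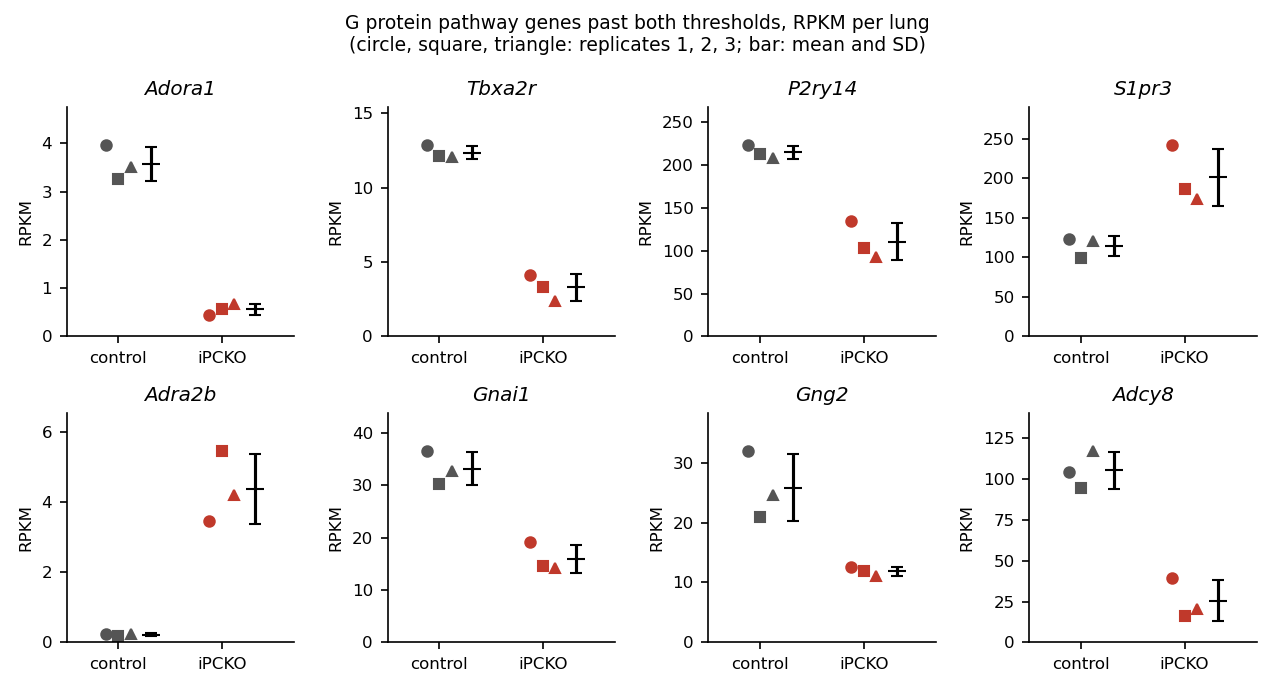
RPKM of the 8 called pathway genes in each control (grey) and Yap1,Wwtr1 iPCKO (red) lung on linear axes from 0; the circle, the square and the triangle are replicates 1, 2 and 3, and the bar is the mean with its SD. The groups of all 8 genes are separate, with Adra2b and S1pr3 higher in the mutant lungs and the other 6 lower.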

How the data were processed

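Ribosome-bound RNA of 3 control and 3 Yap1,Wwtr1 iPCKO lung samples was analysed. The labels do not say how mice map to samples, so p-values measure the spread between these samples. Stranded libraries of total RNA were mapped by the authors to mm10 (GRCm38) with TopHat and counted with HTSeq 0.6.1, and DESeq2 was used for their tests. The deposited values are RPKM per Ensembl gene, and the exon length behind them is not given in the sources used here. Symbols for 21375 of the 21603 genes and coordinates came from GENCODE M21 on the same assembly.

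Differences were fitted with limma 3.58.1 (R 4.3.3) to log2(RPKM + 0.1) with an intensity trend, and p-values were adjusted after Benjamini-Hochberg. The fit took the 12034 genes that reached 1 RPKM in 3 or more samples, without further scaling. The pseudocount understates changes of low genes. Calls needed an adjusted p below 0.01 together with a log2 fold change beyond 0.5 in size. The paper used the same thresholds with DESeq2 and reported more genes than this fit, so the calls here are not those of the paper. Single values per sample used two-sided exact permutation tests. The script was tested on simulated data in which 200 of 12034 genes were changed. It called 118 of them (59%) at a log2 change of 1 and 190 (95%) at 2, with 0 false calls. A gene that was not called can therefore have changed. Depth was inferred from genes with 1 annotated transcript, whose low RPKM are multiples of the value of 1 read. Between 74.9% and 76.9% of these lay within 0.02 reads of a whole number, and over 1 kb of exons 1 read was worth 0.0252 to 0.0702 RPKM. Promoter windows were from RefSeq. Overlap of groups means overlap of their RPKM ranges.

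The members and lists were chosen with earlier results of these data known. Named were all RGS genes, pathway genes past the thresholds or among the 3 most abundant of a list, defining markers, Yap1, Wwtr1 and the 3 genes most like Rgs5. Gnai3, Grk3 and Adcy3 are named besides, after their values were seen. Alternatives were a replicate block, filters, pseudocounts of 1 and 0.01, scalings, sample weights, no trend, other thresholds and leaving out each sample. Other software was Python 3.11.15, scipy 1.17.1, pandas 2.3.3, numpy 2.4.6 and matplotlib 3.10.9.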

Additional observations from a re-analysis of the deposited data

How the results depend on the processing

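The count of RGS members past the thresholds was 1 and became 0 without the filter on low values and without the intensity trend, 2 with sample weights and at an adjusted p of 0.05, and between 0 and 1 with a sample left out. For all genes the count was 1590 with sample weights, 1313 at an adjusted p of 0.05, 411 at an absolute log2 fold change above 1, and 382 to 899 with a sample left out. For the pathway genes it was 15 with sample weights and 5 to 10 with a sample left out. Rgs5 was lower in all 15 alternatives, with a log2 fold change from -1.38 to -0.84 and a limma adjusted p from 0.0021 to 0.03, and lost its call in 8. The sign of some uncalled genes turned with a sample left out, where the log2 fold change ranged from -0.112 to 0.004 for Rgs3 (turned without iPCKO 3), from -0.176 to 0.138 for Rgs4 (without control 1, control 3 or iPCKO 2), from -0.065 to 0.117 for Rgs10 (without control 2 or iPCKO 1) and from -0.159 to 0.144 for Rgs6 (without control 1 or iPCKO 3), and with sample weights for Rgs6 (0.055). The cause was not tested. The summed level and the Rgs5 share kept their direction throughout, with differences of -71.4 to -24.5 RPKM and of -24.0 to -18.5 percentage points with a sample left out. Scaling moved the median of all genes by at most -0.03.

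The samples share only a replicate number. Deviations from the group means correlated at 0.02 to 0.24 for equal numbers and at -0.30 to 0.27 for unequal ones. Of the 6 samples, 4 correlated best with their own number, but the highest correlation was that of control 2 with iPCKO 3. These few values cannot settle whether the samples are paired, and the design does not say. With the replicate block 922 genes and 1 RGS member passed, Rgs2 (limma adjusted p = 0.00096) in place of Rgs5 (0.011), with 0 other RGS genes. The sum and share gave an exact permutation p of 0.25 with signs flipped within pairs of equal number, the smallest p that this test allows. Rgs1, fitted only without the filter on low values, had a 95% interval of -0.55 to 0.85 on the log2 scale.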

Other observations

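Of 14 genes that carry an RGS homology domain without being RGS genes, among them the G protein-coupled receptor kinases and the axins, all were tested and none passed the thresholds, with 3 at an unadjusted p below 0.05 (limma), 5 whose groups did not overlap (35.5% of all tested genes) and a median log2 fold change of -0.04. Arhgef12 was the most abundant, at 57.3, 51.1 and 54.9 RPKM in controls and 57.0, 59.2 and 58.2 in Yap1,Wwtr1 iPCKO samples. Grk5, a receptor kinase, had 32.3, 31.0 and 37.2 RPKM in controls and 26.5, 23.5 and 23.4 in mutants. Its groups did not overlap, at a log2 fold change of -0.45 and a limma adjusted p of 0.018. Grk3, a related kinase and the gene with the lowest adjusted p of the list (0.015, limma), had the opposite direction, with 10.2, 10.8 and 11.7 RPKM in controls and 15.4, 15.3 and 13.6 in mutants (log2 fold change 0.44). Arhgef11, also abundant, ranged from 25.4 to 29.1 RPKM and from 23.9 to 25.4. Of 7 tested genes for Gα modulators and arrestins, none passed either, with 2 at an unadjusted p below 0.05. Gpsm3, which encodes a protein binding inactive Gαi, was the most abundant of them, at 26.5 to 36.2 RPKM in controls and 24.9 to 30.3 in mutants. Gpsm1 ranged from 17.7 to 20.2 RPKM and from 14.7 to 19.6. Ric8a, which encodes a chaperone of Gα subunits, had 16.3, 16.1 and 16.9 RPKM in controls and 14.6, 15.1 and 12.9 in mutants, without overlap (limma adjusted p = 0.15).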
